A study of Homo sapiens with 3 samples.

Results

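The interleukin-1 (IL-1) family and the inflammasome were followed by 10 genes on arrays of a human melanoma line: IL1A, IL1B, IL1RN, IL1R1, IL1R2, IL1RAP, IL1RL1, IL18, CASP1 and CIAS1, the name the array gives to NLRP3. The genes were chosen by symbol, with all probes whose gene name equals a listed symbol, which gave 16 probes of the 41000 on the array and 10 gene names of 30982. They were picked with the signals of these same arrays known, so every ratio of theirs given here is a description and supports no claim by itself. Of the 10 genes, 7 had a probe well above background on at least 1 array, 6 had one on all 3 arrays, and 3 (IL18, IL1RN and IL1RL1) were at background on every array.

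The cells were 1205Lu, a human melanoma line derived from WM793 through a lung metastasis in a xenografted mouse, and each of 3 populations was hybridised to 1 one-colour array. The original monolayer (OM) was kept 14 days in RPMI-1640 with fetal calf serum, the standard medium. Melanoma bodies (MB), attached spheroids, were kept 14 days in human embryonic stem cell (hESC) medium, DMEM/F-12 with KnockOut serum replacement. The new monolayer (NM) came from bodies kept 14 days in hESC medium followed by 10 days in standard medium, with the bodies that remained removed before RNA was prepared. The comparisons ask which transcripts differ while the cells grow as bodies and which return once monolayer growth resumes. No agent, transgene or gene deletion is named for any population. MB differed from both monolayers in medium and in growth form at once, so these cannot be told apart, and all 3 populations were a single line. In RNA from a whole culture, fewer cells expressing a gene and less RNA per cell cannot be told apart either.

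IL-1α (IL1A) and IL-1β (IL1B) are inflammatory cytokines that act through the same receptor, made of IL1R1 and the shared accessory chain IL1RAP. IL1RN encodes a soluble antagonist of that receptor, IL1R2 a decoy receptor that binds ligand without signalling, IL1RL1 the receptor for IL-33, and IL18 a related cytokine. The inflammasome is a cytosolic complex in which a sensor such as NLRP3 activates caspase-1 (CASP1), the protease that cuts pro-IL-1β and pro-IL-18 into their secreted forms. Many melanoma lines are known to make IL-1 themselves. The arrays measure transcripts only, not cleaved or secreted cytokine.

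Signals are given in arbitrary units (a.u.) of the background-subtracted spot intensity. Folds were taken after scaling by the arrays' mean signal of 3 housekeeping genes (GAPDH, ACTB and HSP90AA1), which put MB at 0.978 times and NM at 0.877 times the OM factor. A gene counted as different at 5-fold or more with the brighter array above 100 a.u., signals at background taken as they stand, and a lower bar of 2-fold was read beside it. Since each population had a single array, no test was made and no fold carries a biological error. The error given is the SD over spots for probes printed in 10 spots (among the members IL1A, IL1B and IL18, and PTGS2 among the other genes given with an error) and otherwise the scanner software's own estimate for the single spot. A probe at background on the dimmer array gives only a bound, for which its signal there was raised to the dimmest signal still well above background (20.9 a.u. for OM, 19.4 for MB, 29.1 for NM) unless it was already higher.

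Each probe is a strand of 60 bases, and the first 30 are printed for the probes on which the results turn, because 2 of the genes gave different answers from different probes. The letters are those of the array files, 5′ to 3′, in lower case with no part marked.
IL1A, A_23_P72096, chr2:113248593-113248652: ttattattcttcataacaattttaggagga
IL1B, A_23_P79518, chr2:113303660-113303719: ggaatcaattcaatttggactggtgtgctc
CIAS1, A_23_P9883, chr1:243938070-243938130: tgttgttgtcatcacagcgcctcagttaga
CASP1, A_23_P202978, chr11:104402268-104402812: ctgttcctgtgatgtggaggaaattttccg
IL1RAP, A_23_P170857, chr3:191851670-191851729: aattaatggttttaaatatatgctataggg
IL1RAP, A_24_P148762, chr3:191851304-191851363: tgaatatcaattcttacataaactttaggc
IL1RAP, A_24_P180165, chr3:191848956-191849015: ctctcggggcaacatcaacgtcattttagt
IL1RAP, A_23_P336554, chr3:191830396-191830455: aaagattgcatcatctgacctaagactttc
IL1R1, A_23_P68006, chr2:102250506-102250565: ggggaagggtctacctctgactgtgatatt
IL1R1, A_24_P200023, chr2:102253912-102253971: ataattttcctcctaaacaaaaacacattg

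These positions are in the hg17 build, as the array files give them. The CASP1 probe aligns over 545 bases and so crosses a gap in the genome. Of the 10 genes, 6 lie on chromosome 2, with the IL1A and IL1B probes 55.1 kb apart.

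Against OM, MB held 5-fold or more less of 3 of the 10 genes (IL1A, IL1B and CIAS1) and none was higher. Over all gene names with a value, 0.397% were 5-fold or more lower in MB than OM and 0.597% were higher. Against NM, 4 of the 10 were 5-fold or more lower in MB (IL1A, IL1B, CIAS1 and CASP1) and none was higher, where 0.959% of all gene names were lower and 1.65% higher. Between NM and OM none of the 10 passed 5-fold, where 0.433% of all gene names were higher in NM and 0.565% lower. Against OM, the gene just inside the bar was IL1B, at 5.08-fold lower, and the gene just outside it was CASP1, at 4.16-fold lower. IL1B missed the bar with quantile normalization (4.82-fold) and CIAS1 with the normexp background correction (4.55-fold), while CASP1 passed it when scaled to the spike-in probes (5.04-fold). Against NM, normexp put IL1A at 3.86-fold and CASP1 at 3.66-fold lower, short of the bar.

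At 2-fold, IL1A, IL1B, CIAS1 and CASP1 were lower in MB than OM, and IL1RAP was higher. The background at this bar was 2.43% of gene names lower and 3.89% higher. Against NM, IL1R1 joined the 4 lower genes and IL1RAP was again the 1 higher gene, where 5.94% of gene names were lower in MB and 7.86% higher. NM held 2-fold or more CASP1 and CIAS1 than OM and 2-fold or more less IL1A, where 2.47% of gene names were higher in NM and 3.39% lower. The median log2 ratio of the 7 measured genes was -2.06 for MB over OM, -3.03 for MB over NM and 0.68 for NM over OM. Over all genes well above background on at least 1 array of the comparison, the medians were 0.09, 0.06 and 0.05. The MB array enters both comparisons of MB, and NM and OM each enter another, so these counts do not stand apart from each other.

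**Figure D1:**
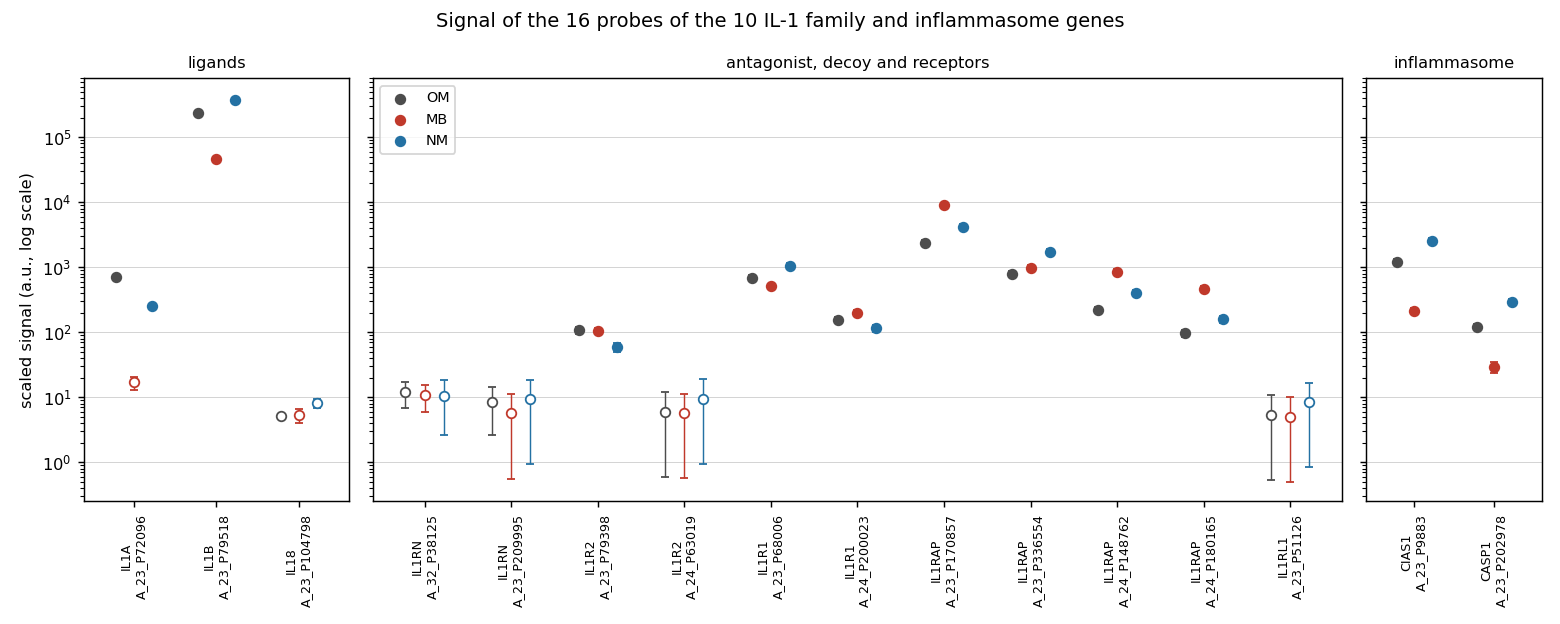
Scaled signal (a.u., log scale) of each of the 16 member probes on OM (grey), MB (red) and NM (blue), grouped by role, with filled points well above background and open points at background. Error bars are the SD over spots for IL1A, IL1B and IL18 and the software's error estimate for the rest, shortened where they would pass 0. MB is the lowest of the 3 for IL1A, IL1B, CIAS1 and CASP1 and the highest for 3 of the 4 IL1RAP probes.

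Both IL-1 ligands were lower in MB, and they parted in NM. The IL1B probe gave 235475 ± 11133 a.u. in OM (SD, 10 spots), 45284 ± 1030 in MB (10 spots) and 330913 ± 24882 in NM (9 spots, with 1 marked as an outlier left out). Its 3 sets of spots did not overlap, with the highest MB spot at 47288 a.u. and the lowest OM spot at 217418. None of the member spots was marked as saturated. IL1B was thus 5.08-fold lower in MB than OM (log2 ratio -2.35), 8.14-fold lower than NM (-3.03), and 1.60-fold higher in NM than OM (0.68).

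IL1A was measured on both monolayers but not in the bodies. It gave 707 ± 27.8 a.u. in OM (10 spots), 16.5 ± 3.75 in MB (9 spots, none well above background) and 223 ± 9.07 in NM (10 spots). The MB signal is therefore a bound, and IL1A was lower in MB than OM by at least 35.6-fold and lower than in NM by at least 12.8-fold. Between the monolayers IL1A was 2.78-fold lower in NM than OM (log2 ratio -1.48), and IL1B, as given above, was higher in NM. The difference between the OM and NM spots of either ligand was larger than the spread over spots, which is technical and says nothing of the spread between cultures.

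**Figure D2:**
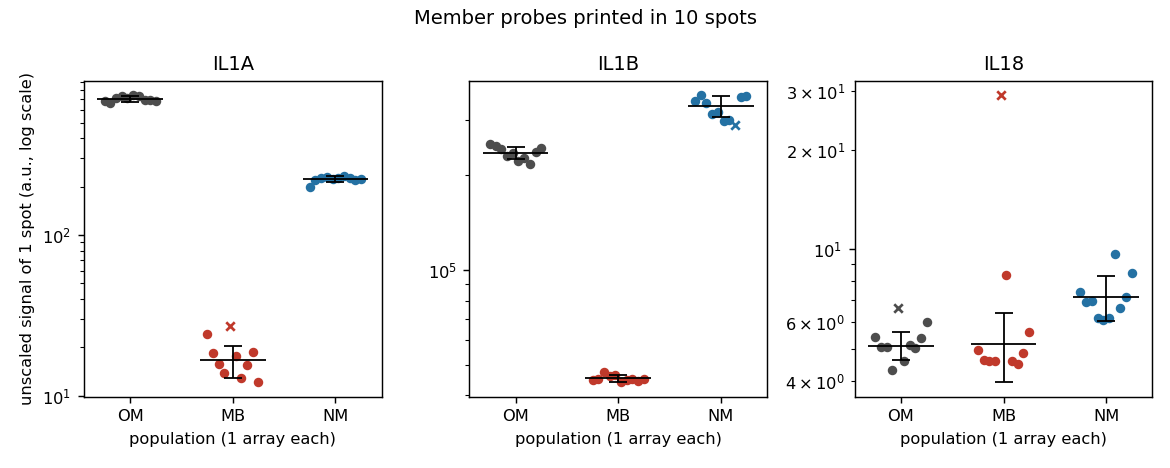
Unscaled signal of every spot (a.u., log scale, a separate axis for each gene) of the 3 member genes printed in 10 spots, by population, with the mean and SD over the spots used and crosses for spots left out as outliers. The MB spots of IL1A and IL1B lie below all OM and NM spots, while the IL18 means lie between 5.10 and 7.16 a.u. on all 3 arrays.

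The remaining ligand, IL18, was at background in every population. Its 10-spot probe averaged 5.10 a.u. in OM, 5.18 in MB and 7.16 in NM, and no fold can be given. The antagonist IL1RN was also at background, with 11.95, 10.4 and 9.21 a.u. from its brighter probe on OM, MB and NM, and between 5.52 and 8.62 a.u. from the other. These signals lie below the lowest that counted as well above background, so a level under that limit was not detectable.

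None of the receptor genes passed 5-fold in any comparison. IL1R2, the decoy receptor, gave 107 ± 11.7 a.u. in OM, 102 ± 11.05 in MB and 52.5 ± 8.19 in NM from probe A_23_P79398. Its log2 ratio was -0.04 ± 0.22 for MB over OM, within the error of the spots, and 0.80 ± 0.27 for MB over NM. A second IL1R2 probe was at background on all 3 arrays. IL1RL1, the IL-33 receptor, was at background too, at 5.39, 4.91 and 7.33 a.u. in OM, MB and NM.

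IL1R1, the signalling receptor chain, gave opposite answers from its 2 probes, which lie 3.41 kb apart and carry the same accession. Probe A_23_P68006 read 695 ± 69.6 a.u. in OM, 499 ± 50.0 in MB and 926 ± 92.8 in NM, lowest in MB, which put MB 1.36-fold below OM and 2.07-fold below NM. Probe A_24_P200023 read 156 ± 16.5 a.u. in OM, 195 ± 20.0 in MB and 102 ± 12.4 in NM, highest in MB, which put MB above OM by 1.27-fold and above NM by 1.72-fold. The log2 ratios of the probes differed by -0.80 ± 0.29 for MB over OM and by -1.83 ± 0.31 for MB over NM. The count of IL1R1 among the genes 2-fold lower than NM rests on the first, brighter probe, and the mean of both probes gave a log2 ratio of -0.13. Which probe follows the receptor transcript was not tested.

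IL1RAP, the accessory chain, was the member higher in MB. The 3 probes that carry the accession of transcript variant 1 (NM_002182), which encodes the membrane form, gave the same order. A_23_P170857 read 2363 ± 236 a.u. in OM, 8793 ± 879 in MB and 3642 ± 364 in NM. A_24_P148762 read 219 ± 22.3 a.u. in OM, 829.6 ± 83.1 in MB and 352 ± 35.7 in NM. A_24_P180165 read 96.5 ± 11.2 a.u. in OM, 452 ± 45.5 in MB and 139.8 ± 15.95 in NM. All 3 were highest in MB and lowest in OM, at 3.81-fold, 3.87-fold and 4.79-fold over OM and 2.17-fold, 2.11-fold and 2.90-fold over NM.

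The fourth IL1RAP probe, A_23_P336554, carries the accession of transcript variant 2 (NM_134470), which encodes a shorter, soluble form without the membrane anchor. It lies 18.6 kb from the nearest probe of variant 1 and read 785 ± 78.6 a.u. in OM, 948 ± 94.9 in MB and 1517 ± 152 in NM. It was highest in NM, with MB 1.24-fold over OM and 1.78-fold below NM. The log2 ratio of MB over OM was 1.93 ± 0.20 for A_23_P170857 and 0.31 ± 0.20 for the variant 2 probe, a difference of 1.62 ± 0.29, and for MB over NM the difference was 1.95 ± 0.29. Across the alternatives of scaling, background and filter, the difference for MB over OM lay between 1.62 and 1.70 for this probe, between 1.36 and 1.70 for A_24_P148762 and between 1.38 and 2.03 for A_24_P180165. For MB over NM it lay between 1.90 and 2.06, between 1.73 and 1.91 and between 1.96 and 2.37 in the same order. Scaling by a single factor per array cancels in such a difference, and the limits for dim signals do not enter it. Those alternatives could not move it, so the ranges reflect only the others. For NM over OM the difference was -0.33 ± 0.29. The comparison of probes was chosen after their values were seen.

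**Figure D3:**
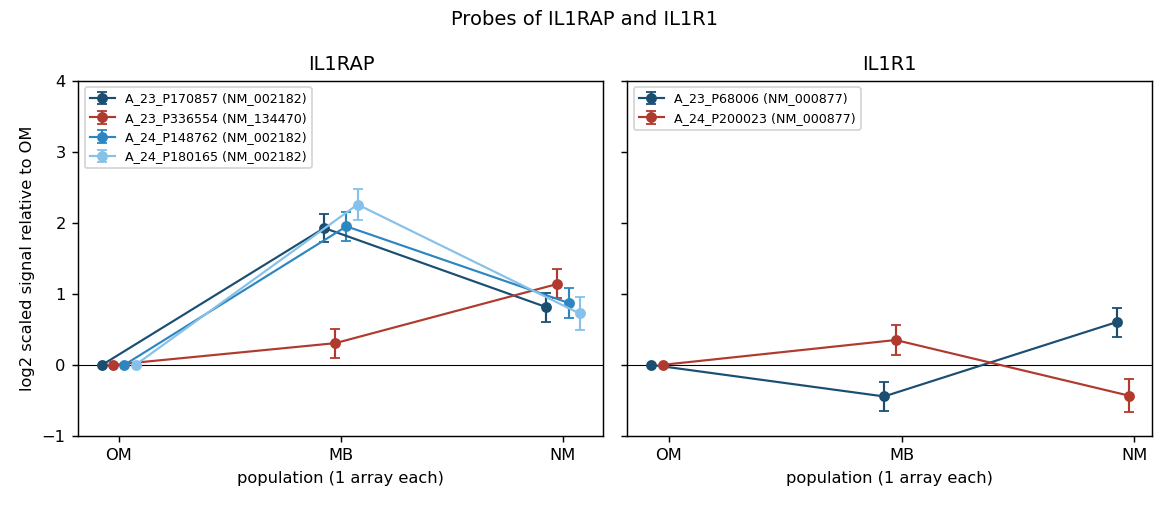
Log2 scaled signal relative to OM of the 4 probes of IL1RAP (left) and the 2 of IL1R1 (right) on OM, MB and NM, with the software's error estimate for each ratio and the probe's accession in the key. The 3 IL1RAP probes of variant 1 lie near 2 in MB and the variant 2 probe at 0.31, and the IL1R1 probes lie on opposite sides of 0.

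Both inflammasome members were lowest in MB and highest in NM. CIAS1 encodes the sensor NLRP3 and gave 1200.0 ± 120.1 a.u. in OM, 209.9 ± 21.5 in MB and 2246 ± 225 in NM. It was 5.59-fold lower in MB than OM, 11.9-fold lower than NM, and 2.13-fold higher in NM than OM. CASP1, the protease, gave 119.8 ± 13.0 a.u. in OM, 28.2 ± 5.42 in MB and 255 ± 26.4 in NM, all well above background. It was 4.16-fold lower in MB than OM, 10.1-fold lower than NM and 2.43-fold higher in NM than OM. From low to high, the order MB, OM, NM was that of IL1B, CASP1 and CIAS1. IL1R1 shared it by its brighter probe only, and its second probe gave the reverse. The share of all genes in that order was not computed.

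**Figure D4:**
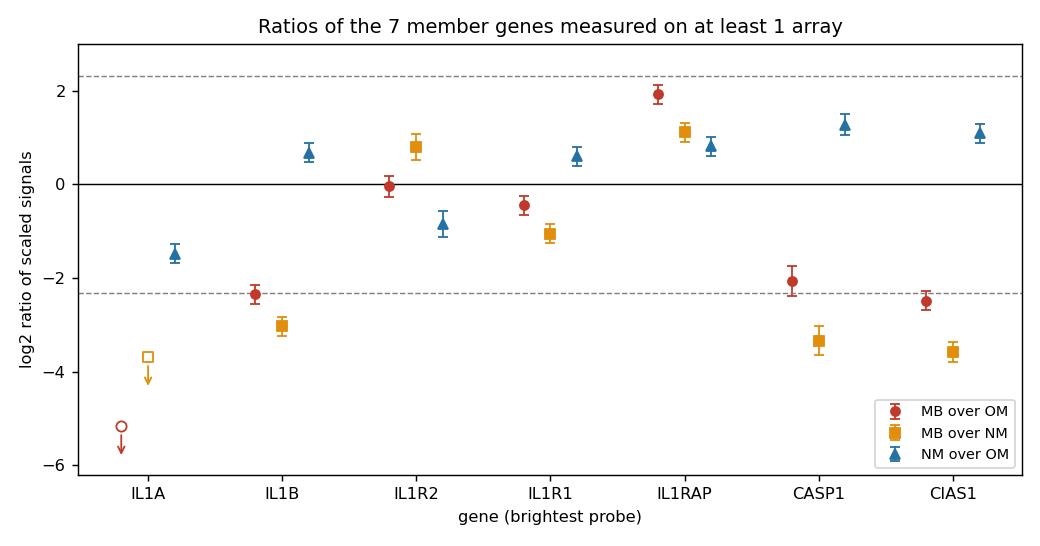
Log2 ratio of scaled signals of the 7 member genes measured on at least 1 array, by the brightest probe, for MB over OM (circles), MB over NM (squares) and NM over OM (triangles). Bars are the software's error estimate of the ratio, open symbols with arrows are bounds, and dashed lines mark 5-fold. IL1A, IL1B, CASP1 and CIAS1 lie below -2 against OM and below -3 against NM, and IL1RAP lies above 0 in all 3 comparisons.

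Promoters are shown for the 3 members past 5-fold against both monolayers, from 250 bases before to 50 after the gene start (RefSeq, GRCh38.p14, each read along its gene's strand). Windows were found for 8 of the 10 members. For IL1A, where the table holds more than 1 start, the window in which both capital matches lie upstream of the start is shown. TGANTCA (the letters an AP-1 factor binds, in capitals in IL1A) and the NF-kB consensus were searched on both strands. TATAAA (in capitals in CIAS1) was searched on the printed strand only.
IL1A, chr2:112784351-112784650, minus strand: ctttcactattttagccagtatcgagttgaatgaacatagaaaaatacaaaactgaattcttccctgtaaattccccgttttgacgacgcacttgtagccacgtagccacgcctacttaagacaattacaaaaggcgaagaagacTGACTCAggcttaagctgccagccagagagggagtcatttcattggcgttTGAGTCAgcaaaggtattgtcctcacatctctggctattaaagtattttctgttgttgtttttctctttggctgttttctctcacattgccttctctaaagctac
IL1B, chr2:112836730-112837029, minus strand: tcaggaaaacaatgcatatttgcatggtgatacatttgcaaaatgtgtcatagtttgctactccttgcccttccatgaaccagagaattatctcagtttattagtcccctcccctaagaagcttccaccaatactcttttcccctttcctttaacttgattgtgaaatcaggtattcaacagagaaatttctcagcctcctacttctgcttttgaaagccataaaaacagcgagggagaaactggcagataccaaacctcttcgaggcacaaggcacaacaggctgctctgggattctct
CIAS1, chr1:247415923-247416222, plus strand: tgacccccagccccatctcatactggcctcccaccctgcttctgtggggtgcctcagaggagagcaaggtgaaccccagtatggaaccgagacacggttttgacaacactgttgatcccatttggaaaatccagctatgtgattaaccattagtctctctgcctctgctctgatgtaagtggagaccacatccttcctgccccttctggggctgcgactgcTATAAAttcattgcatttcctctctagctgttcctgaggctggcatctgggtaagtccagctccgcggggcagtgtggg

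The IL1A window holds TGANTCA at positions -105 and -55 from the start, where 7.71% of the 35116 windows in the table hold 1 or more and 0.515% hold 2 or more. From the other IL1A start the same matches lie at -12 and 38, with TATAAA at -239. The CIAS1 window holds TATAAA at position -29, as 7.33% of all windows hold it somewhere. None of the 3 motifs was found in the window of IL1B, and the NF-kB consensus, present in 11.3% of all windows, was in none of these 3. Among the other members, windows of IL1RN and IL1RL1 hold TGANTCA and TATAAA, and a window of IL1R2 holds TATAAA and the NF-kB consensus. These matches are letters in a fixed window and say nothing of a factor.

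Of 14 further IL-1 family ligands and receptors on the array, 9 were measured, and none passed 5-fold in any comparison. Their median log2 ratios were 0.01 for MB over OM, 0.08 for MB over NM and 0.02 for NM over OM. At 2-fold, IL1F9 (now IL36G, an epithelial cytokine) was higher in MB than OM at 2.09-fold, from 144.8 to 296 a.u., and IL18R1, the IL-18 receptor chain, was lower at 2.32-fold, from 388 to 163 a.u. Neither held at 2-fold under every alternative, with 1.72-fold for IL1F9 after spike-in scaling and 1.95-fold for IL18R1 by the mean over probes. The brightest of the list, SIGIRR, a receptor that dampens IL-1 signalling, gave 6693 ± 669 a.u. in OM, 4198 ± 420 in MB and 6577 ± 658 in NM, lower in MB by 1.56-fold against OM and by 1.75-fold against NM.

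The intracellular pathway below the receptor was measured throughout, with all 18 listed genes well above background on at least 1 array. Their median log2 ratios were 0.24 for MB over OM, 0.09 for MB over NM and 0.16 for NM over OM. Only IRAK3, which encodes an inhibitory kinase-like protein, passed 5-fold, at 113 ± 12.1 a.u. in OM and at background in MB and NM (11.08 and 10.96 a.u.). Its bound was at least 5.71-fold for MB below OM, from a single spot, and at least 3.41-fold for NM below OM. With normexp it was 2.36-fold lower in MB, short of the bar. IRAK2, a kinase of the receptor complex, read 69.2 a.u. in OM, 135.5 in MB and 227 in NM, highest in NM at 3.74-fold over OM. Its 2.00-fold for MB over OM lay on the lower bar and was below it under 7 of the 13 alternatives, at 1.45-fold with normexp. MYD88, the receptor's adaptor, was 1.79-fold higher in MB than OM by its brighter probe and 2.13-fold by a second.

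Of 20 other genes of inflammasomes and pyroptosis, 16 were measured, with median log2 ratios of 0.01 for MB over OM, -0.82 for MB over NM and 0.49 for NM over OM. None passed 5-fold between MB and OM. Lower in MB than NM by 5-fold or more were TXNIP, a thioredoxin-binding protein described as an NLRP3 ligand, and P2RX7, the ATP-gated channel that triggers NLRP3. TXNIP gave 6950.1 ± 695 a.u. in OM, 3248 ± 325 in MB and 75835 ± 7583 in NM, 26.02-fold lower in MB than NM and 12.4-fold higher in NM than OM. P2RX7 gave 319 ± 32.3 a.u. in OM, 595 ± 59.7 in MB and 3045 ± 305 in NM, 5.70-fold lower in MB than NM and 10.9-fold higher in NM than OM. At 5-fold, 0.959% of all gene names were lower in MB than NM and 0.433% higher in NM than OM. At 2-fold, 7 of the 20 were lower in MB than NM and none was higher, where 5.94% of all gene names were lower and 7.86% higher.

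Among 25 genes that IL-1 is known to induce in many cells, 20 were measured. The median log2 ratio was -1.58 for MB over OM, -3.00 for MB over NM and 1.12 for NM over OM. Against OM, 5 of the 25 were 5-fold or more lower in MB by the brightest probe and 1 was higher. Of all gene names, 0.397% were lower and 0.597% higher. By the brightest probe CXCL2 (4.09-fold lower) and CXCL3 (3.81-fold) fell short, but a second probe of each passed, at 5.14-fold and 11.4-fold. IL8, a neutrophil chemokine, gave 1657 ± 166 a.u. in OM, 109 ± 11.8 in MB and 8082 ± 808 in NM, lower in MB by 14.8-fold against OM and by 82.4-fold against NM. MMP1, a collagenase, was lower in MB by 11.3-fold against OM and by 8.68-fold against NM. IL6 was lower by 8.65-fold and 14.6-fold, PTX3, a pattern-recognition protein, 7.62-fold and 7.85-fold, and the chemokine CXCL1 5.84-fold and 24.8-fold.

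The exception was PTGS2, the inducible cyclooxygenase, with 52.9 ± 5.05 a.u. in OM (SD, 10 spots), 365 ± 11.2 in MB (8 spots) and 130.5 ± 7.97 in NM (10 spots). It was higher in MB by 7.06-fold against OM and by 2.51-fold against NM. With normexp the fold of PTGS2 over OM was 3.71, short of the bar. Below the bar, TNFAIP3, CXCL5 and LCN2 also read higher in MB than OM, at 1.65-fold, 1.19-fold and 1.15-fold. The log2 ratios of CXCL5 (0.25 ± 0.21) and LCN2 (0.20 ± 0.20) were about the size of the software's error. A second CXCL5 probe was at background on all 3 arrays. Over all gene names, 0.959% were 5-fold or more lower in MB than NM and 1.65% higher. Against NM, 12 of the 25 were 5-fold or more lower in MB and none was higher. Beyond IL8, MMP1, IL6, PTX3 and CXCL1, these were CXCL2 (28.6-fold), CXCL3 (20.7-fold), SOD2, the mitochondrial superoxide dismutase (12.3-fold), and CCL20 (10.6-fold). ICAM1, an adhesion molecule, was 8.15-fold lower, CSF2, a growth factor of myeloid cells, at least 7.67-fold lower (2.75-fold with normexp), and BIRC3, an inhibitor of apoptosis, 6.79-fold lower. Over all gene names, 0.433% were 5-fold or more higher in NM than OM. Among the 25, NM exceeded OM by that much for IL8, CXCL2, CXCL3, CCL20 and SOD2. Of these, IL8 fell short of 5-fold without scaling (4.88-fold), CXCL3 by the mean over its probes (4.48-fold) and in 3 other alternatives, and SOD2 by the mean over its probes (3.06-fold) and after quantile normalization. A second SOD2 probe gave a log2 ratio of 0.65 for NM over OM against 2.58 for the brighter one. A second CXCL3 probe was 3.70-fold higher in NM than OM, and its log2 ratio was -3.52 for MB over OM against -1.93 for the brighter one. Several of these chemokines are close relatives, and cross-hybridisation between them was not tested.

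**Figure D5:**
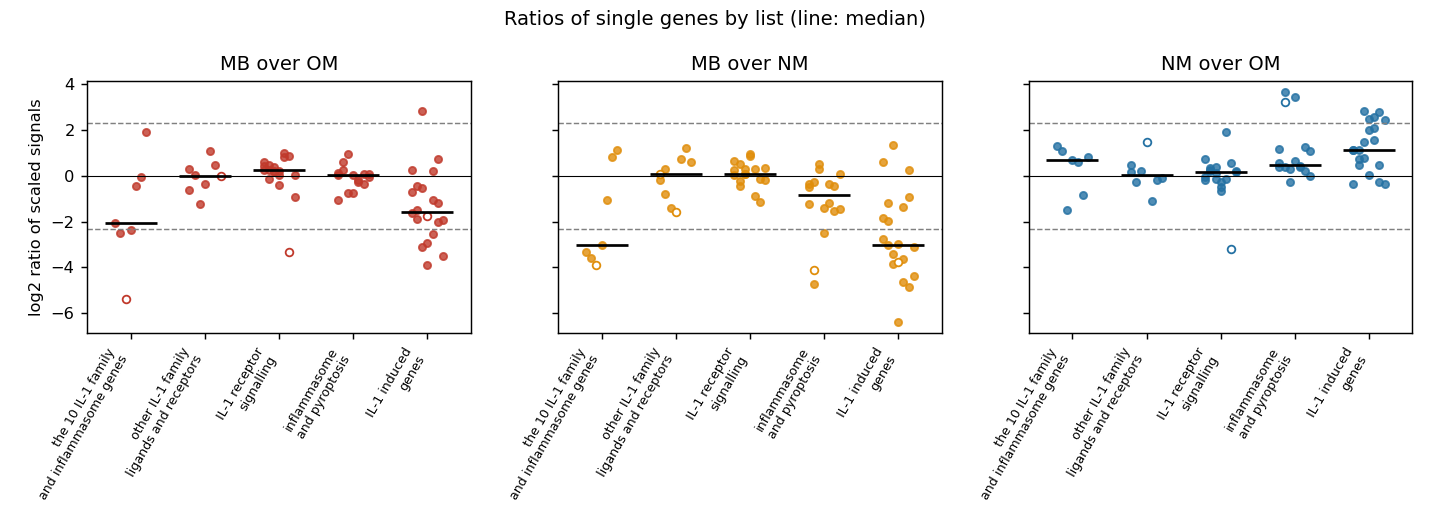
Log2 ratio of each gene by list, for MB over OM, MB over NM and NM over OM, with 1 point per gene well above background on at least 1 of the arrays compared, open where an array was at background, a line at the list's median and dashed lines at 5-fold. The medians of the 10 member genes and of the IL-1 induced genes lie below -1.5 for MB over OM and those of the other 3 lists between 0 and 0.3.

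Markers of the line and of other cells were read beside these values. Of 9 melanocyte and melanoma markers 8 were measured, SOX10 at 6254, 9382 and 4887 a.u. in OM, MB and NM, while TYR, the pigment enzyme, was at background. In the same order S100B read 25155, 43760 and 13307 a.u., CSPG4 18726, 34069 and 12335, and MITF 423, 718 and 551. MCAM read 8671, 6763 and 5380 a.u. and SILV 286, 209 and 271, both lower in MB than OM. DCT lay between 62.8 and 66.7 a.u., and MLANA read 31.3 and 39.5 a.u. in OM and MB with background on NM. Of 10 myeloid markers, whose cells make IL-1β, 6 were measured, and PTPRC, LYZ, AIF1 and CD163 were at background on all 3 arrays. Their summed scaled signal was 5645 a.u. in OM, 2792 in MB and 6954 in NM, most of it CD68, a lysosomal protein (4716, 1727 and 4944 a.u. unscaled), lowest in MB. TYROBP, an adaptor of myeloid receptors, was also lowest in MB and highest in NM, at 69.8, 53.0 and 108 a.u. ITGAM, an integrin, read 135, 194 and 304 a.u., 2.57-fold higher in NM than OM, and FCER1G 584.5, 620.1 and 604 a.u. CD14 lay between 58.7 and 70.3 a.u. and CSF1R between 33.7 and 42.9 a.u. on the 3 arrays. Their part in the IL-1 results was not tested. Of 7 keratinocyte markers 3 were measured: KRT10 read 39103, 39383 and 32649 a.u. on OM, MB and NM, KRT14 213, 373 and 118 a.u., and TP73L 88.3 a.u. on OM with background on the others, while KRT5, KRT1, DSG3 and IVL were at background on all 3. Of 7 fibroblast markers 3 were measured: PDGFRA read 5519, 9882 and 3174 a.u. on OM, MB and NM, PDGFRB 1246, 2322 and 2737 a.u., and DCN 26.8 a.u. on MB with background on the others, while COL1A1, COL1A2, COL3A1 and LUM were at background on all 3. The summed scaled signal was 39435, 40693 and 37390.3 a.u. for the keratinocyte list and 6808, 12543 and 6807 a.u. for the fibroblast list, in the same order.

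The genes with the pattern most like that of IL1B were looked for among 12234 genes with a RefSeq NM_ accession that were well above background on all 3 arrays, by the Euclidean distance over 2 values, the log2 ratios of MB and of NM over OM. The nearest were ARHGAP24 at 0.14, DDIT4, a stress-induced inhibitor of mTOR signalling, at 0.19, ATF3, a stress-induced transcription factor, at 0.20, RARRES1 at 0.22 and PCK2, the mitochondrial PEP carboxykinase, at 0.23. DDIT4 gave 119034 a.u. in OM, 20021 in MB and 165545 in NM. In all, 17 genes lay within 0.5 of IL1B, a likeness over 3 arrays in which both ratios share the OM signal.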

How the data were processed

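RNA from the OM, MB and NM populations was hybridised to 1 array each, Agilent 4 × 44K one-colour (Cy3), on 1 slide. The authors deposited the intensity of each spot as Feature Extraction gave it (9.5.3.1 in the headers, 9.5 in the labels), with the local background subtracted, low values replaced by a surrogate, and no scaling between arrays. The deposited series values hold the same intensities. Control spots and outliers (77 spots for OM, 79 for MB, 81 for NM) were dropped, spots of a probe averaged and arrays divided by the mean of 3 housekeeping genes, each from a probe printed in 10 spots. The methods do not say which HSP90 gene was used, and HSP90AA1 was chosen. A probe was well above background where over 50% of its spots were. Well above background were 28746 probes on OM, 29125 on MB and 26516 on NM. A gene's value is that of its brightest probe. The number of arrays limits the precision.

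The members, gene lists and comparisons were chosen with earlier results of these data known. Named were all 10 members, list genes past 5-fold, the brightest gene of a list with none, and the 5 genes nearest to IL1B. Single markers, IL1F9, IL18R1, IRAK2 and MYD88 were named after their values were seen. Motifs and names came from RefSeq tables (GRCh38.p14), where 15 of 16 member probes matched by accession.

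Each value was recomputed without scaling, after quantile normalization, scaled to the 75th percentile or to 7 spike-in probes, with the geometric mean of the housekeeping genes, normexp (limma 3.58.1, R 4.3.3, offset 50), without subtracting background, with another limit for dim signals (both arrays well above background, none, or a minimum of 50 a.u.), the mean over probes, outlier spots kept and the series values. Computations used Python 3.11.15, numpy 2.4.6, pandas 2.3.3 and matplotlib 3.10.9. The calling of folds was tested on simulated data in which only bright probes changed, by folds well away from 5-fold. That test says nothing of signals near background or of folds near the bar.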

Additional observations from a re-analysis of the deposited data

How the results depend on the processing

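The number of member genes 5-fold or more lower in MB than NM was 4, and it was 2 with normexp background correction and 2 with no background subtraction, where IL1A and CASP1 no longer passed. With normexp the log2 ratio of MB over NM was -1.95 for IL1A and -1.87 for CASP1. Against OM the count of 3 ranged from 2 to 4: CASP1 joined with the spike-in scaling, IL1B left with quantile normalization and CIAS1 with normexp. The number of members 5-fold different between NM and OM was 0 under every alternative, and all 21 log2 ratios of the 7 measured members kept their sign under all 13 alternatives. Among these, the limits for dim signals act on calls and not on ratios, so they could not change a sign. The series values hold the same intensities. The mean over probes moved IL1R1 for MB over NM from -1.05 to -0.13. None of the alternatives took a dimmer probe alone. The dimmer IL1R1 probe had the opposite sign in every comparison, at 0.35 for MB over OM, 0.78 for MB over NM and -0.43 for NM over OM. The variant 2 probe of IL1RAP had the opposite sign for MB over NM (-0.83).

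Scaling to the spike-in probes moved the median log2 ratio of all genes for MB over OM to -0.19. Among all genes past 5-fold, 60.1% were higher in MB than OM, and 46.2% with the spike-ins. For MB against NM this share was 63.3%, and 47.5% with normexp, and for NM against OM 43.4%, and 76.5% with normexp. Of the named list genes, the log2 ratio of PTX3 for NM over OM (0.04) and that of SIGIRR (0.16) took the opposite sign under some scalings. No paired analysis was possible because each population has a single array, so none could be left out either. Signals near background limit the folds of IL1A, CASP1 and IRAK3.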
